A study of Mus musculus with 4 samples.

Results

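The genes described here were 54 members of the DNA replication and nucleotide supply machinery, compared between adult mouse mesoangioblasts (AdmMABs) in which PW1 was silenced and their controls. Members were taken by symbol, and a probe set counted for a gene only where it carried that symbol alone. All 54 were measured, out of 19938 genes with such a probe set. For 3 of them, Pcna, Rpa3 and Tk1, there were 2 probe sets, and the one with the higher mean over the 4 arrays was used. No filter on low values was applied, and all 54 lay above the median row of the table (5.44 on the log2 scale), the lowest at 6.52.

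Mesoangioblasts are progenitors that lie along blood vessels and can become skeletal muscle, and these came from the tibialis anterior of adult male C57/BL6 mice. RNA was taken from growing cells, in DMEM with 20% fetal bovine serum, and hybridised to Affymetrix Mouse Gene ST arrays. The shCtrl cells (2 arrays) carried a lentiviral short hairpin matching no mouse sequence, and the shPW1 cells (2 arrays) carried a lentiviral hairpin against PW1, the zinc-finger protein encoded by Peg3. Both groups had therefore been transduced and neither was untreated. Each was a polyclonal population, from which 2 RNA extractions were made, so p-values measured the spread between extractions of the same cells. PW1 was targeted by 1 hairpin sequence. The methods place it in the plasmid pLV-H1 and name a control hairpin in pLKO.1, and if the control arrays carried that plasmid, a difference between vectors cannot be told apart from the loss of PW1.

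DNA is copied once per cell cycle because origins are licensed and fired in separate steps. In G1 the origin recognition complex (ORC), Cdc6 and Cdt1 load the ring of MCM2-7 onto DNA, and in S phase Cdc45 and GINS join that ring to form the active helicase, after which primase, the replicative polymerases and the PCNA clamp copy both strands. Deoxynucleotides are made by ribonucleotide reductase, thymidylate synthase and thymidine kinase, and many of these genes are transcribed in waves under E2F factors, so that their RNA follows the share of dividing cells in a culture.

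Values below are log2 expression as deposited, differences are shPW1 minus shCtrl on that log2 scale, and a gene was called at a Benjamini-Hochberg adjusted p under 0.05 from limma over 21789 probe sets. Peg3, the targeted gene, read 8.67 and 8.70 in the shCtrl arrays and 6.22 and 6.47 in the shPW1 arrays, a difference of -2.34 (SE 0.10, adjusted p = 0.00428). Both shPW1 arrays lay far below both controls, as their labels require. Array medians lay between 5.40 and 5.49 and were on average lower in the shPW1 arrays. Subtracting them moved the members' median difference from 0.0362 to 0.0944, and that over all probe sets from -0.0095 to 0.0487.

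Of the 54 members, 6 were called higher in shPW1 cells (Orc1, Orc2, Cdc6, Gins1, Rfc1 and Clspn), 1 was called lower (Tk1) and 47 did not pass the test. Over all probe sets tested, 4.93% were called higher, 4.17% lower and 9.1% in either direction, against 11.1%, 1.85% and 13.0% of the members. The members' median difference was 0.04, beside -0.01 over all probe sets, where the middle of the distribution ran from -0.12 to 0.11 between the quartiles. In 25 members both shPW1 arrays lay above both shCtrl arrays and in 16 below, and in 13 the groups overlapped. Separation of that kind was common in these arrays, at 27.5% of all probe sets upwards, 28.0% downwards and 55.5% in all. Subtracting each array's median changed the balance of calls over all probe sets from 54.2% higher to 68.2% higher, and that of the members to 10 higher and 0 lower. In bulk RNA, a change in the share of cycling cells and a change in RNA per cell cannot be told apart.

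**Figure D1:**
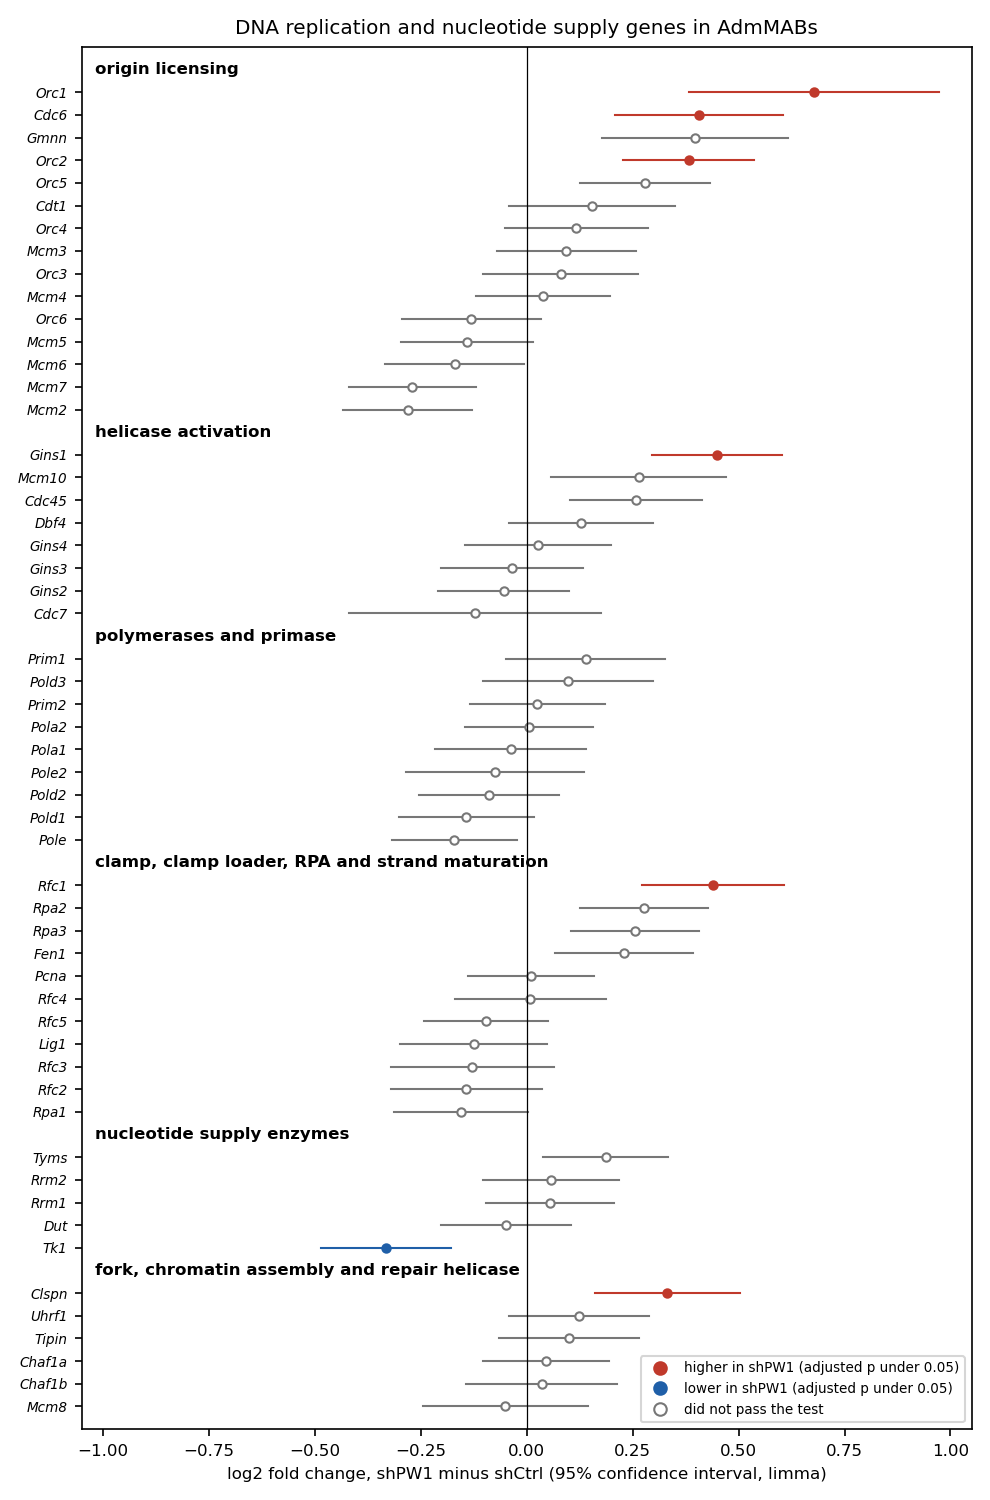
Log2 fold change (shPW1 minus shCtrl, horizontal axis) of each of the 54 genes, grouped by role, where points are limma estimates from 2 arrays per group and bars are 95% confidence intervals. Red genes were called higher and the blue gene lower, and the 6 red genes are spread over 4 of the roles. Polymerases and primase held none and neither did the nucleotide supply enzymes, where 4.93% of all probe sets were called higher.

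Origin licensing held 15 members and 3 of the 6 rises, which was 20.0% called, against 9.1% of all probe sets. ORC marks origins throughout the cell cycle, and of its 6 subunits 2 rose and none fell, with a median difference of 0.20. Orc1, the subunit whose binding opens a new licensing cycle, read 6.92 and 6.76 in shCtrl and 7.39 and 7.64 in shPW1. Both shPW1 arrays exceeded both controls, and the 1.60-fold difference was the largest of all 54 members (0.68, SE 0.11, adjusted p = 0.0351). Orc2, a core subunit of the complex, rose from 9.67 and 9.65 to 10.02 and 10.07, with no overlap and a spread between extractions far below the shift (0.38, SE 0.06, adjusted p = 0.0314).

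The other ORC subunits did not pass the test. Orc5 came nearest, at 8.18 and 8.16 against 8.47 and 8.42 (0.28, SE 0.06, adjusted p = 0.0567), and its groups did not overlap. For Orc4 the difference was 0.12 and for Orc3 0.08, the latter with overlapping arrays. Orc6, which is the least tightly held subunit, was the single one whose shPW1 arrays both lay below the controls, at 8.99 and 9.07 against 9.18 and 9.14 (-0.13, adjusted p = 0.263).

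The proteins that load the helicase, and the inhibitor that limits loading, all had higher readings in shPW1 cells, and 1 of the 3 passed. Cdc6, the ATPase that joins ORC to recruit MCM2-7, read 9.26 and 9.10 in shCtrl and 9.60 and 9.57 in shPW1 (0.41, SE 0.08, adjusted p = 0.0443). Its arrays were well apart, although the control extractions differed more than the silenced ones, and it missed the threshold after quantile normalization (adjusted p = 0.0527). Cdt1, the partner of Cdc6 in loading, read 9.95 and 9.91 against 10.01 and 10.16 (0.15, adjusted p = 0.271). Gmnn, which encodes geminin, the protein that binds Cdt1 and blocks a second round of licensing, read 6.40 and 6.25 against 6.78 and 6.66 (0.40, SE 0.08, adjusted p = 0.0578). Geminin thus had about the difference of Cdc6 with a wider spread between the shPW1 extractions.

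The ring that is loaded showed neither rise nor fall that passed the test. None of the 6 MCM2-7 subunits was called, their median difference was -0.16, and in 4 of them both shPW1 arrays were below both controls. Of all probe sets, 28.0% lay below in this way and 9.1% were called. Mcm2 read 10.79 and 10.80 in shCtrl and 10.49 and 10.54 in shPW1 (-0.28, SE 0.06, adjusted p = 0.0550). Mcm7 read 10.93 and 10.92 against 10.64 and 10.67 (-0.27, SE 0.06, adjusted p = 0.0580). In both genes the spread between extractions was small beside the shift, and the adjusted p lay just past the threshold, below it after quantile normalization (0.0393 and 0.0409) and well above it once array medians were subtracted (0.129 and 0.144). Mcm6 and Mcm5 had differences of -0.17 and -0.14, also without overlap. Mcm3 had a difference of 0.09 and Mcm4 of 0.04, the latter with overlapping arrays. The mean log2 level of the 6 subunits was 10.62 and 10.61 in shCtrl and 10.48 and 10.51 in shPW1, while that of the 6 ORC subunits was 8.69 and 8.63 against 8.85 and 8.94. The difference between both complexes was not tested.

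**Figure D2:**
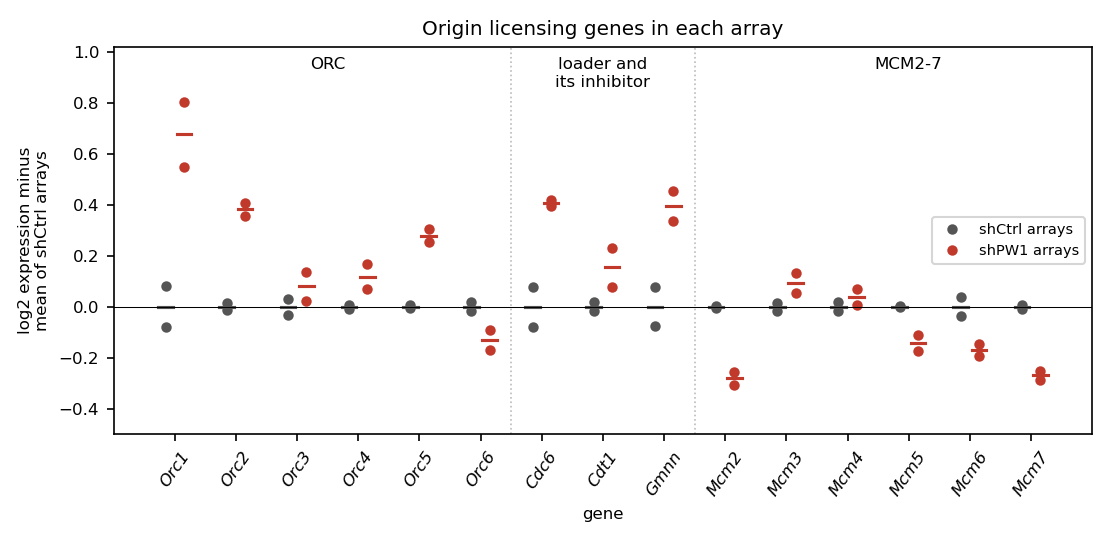
Log2 expression of the 15 origin licensing genes in each array after subtracting the mean of the shCtrl arrays (vertical axis), with 1 point per array and a short line at each group's mean. Orc1, Orc2 and Cdc6 passed the test in the upward direction, and Orc6, Mcm2, Mcm5, Mcm6 and Mcm7 have both shPW1 points below both shCtrl points without passing it.

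Promoter sequence from RefSeq (GRCm38.p6) was at hand for 45 members, as the 250 bases before each annotated start. It shows whether licensing genes with differences of opposite sign carry the same recognition letters. A word of the E2F site (TTTGGCGC, TTTCGCGC, TTTGCCGC or TTTCCCGC, either strand, overlapping words counted separately) was present for 10 members, 22.2%, and for 583 of 27025 genes with such a window, 2.16%. Of the 10, 6 were licensing genes (Orc1, Orc3, Cdc6, Mcm5, Mcm6 and Mcm7), and 3 of these had differences above zero and 3 below. Over all 10 the split was 4 above and 6 below, with Gins3 and Pola1 near zero and turning sign when array medians were subtracted, and 2 of the 6 called members with a window, Orc1 and Cdc6, held a match. A match is a description of letters, not of binding. The windows of the rising pair, of the 3 matched MCM genes and of Tk1, the member that fell, are given 5′ to 3′ on the gene's strand with E2F words in capitals, so that Tk1 has none.
Orc1: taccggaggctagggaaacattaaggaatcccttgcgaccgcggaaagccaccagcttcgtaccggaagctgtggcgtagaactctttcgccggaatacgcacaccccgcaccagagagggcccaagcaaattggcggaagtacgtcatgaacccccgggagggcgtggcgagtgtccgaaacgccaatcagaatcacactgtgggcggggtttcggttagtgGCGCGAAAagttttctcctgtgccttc
Cdc6: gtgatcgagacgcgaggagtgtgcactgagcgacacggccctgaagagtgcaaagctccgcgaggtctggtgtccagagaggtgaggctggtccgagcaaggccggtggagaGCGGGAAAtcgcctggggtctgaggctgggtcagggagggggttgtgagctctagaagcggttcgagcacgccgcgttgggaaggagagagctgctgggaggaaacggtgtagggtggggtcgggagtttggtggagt
Mcm5: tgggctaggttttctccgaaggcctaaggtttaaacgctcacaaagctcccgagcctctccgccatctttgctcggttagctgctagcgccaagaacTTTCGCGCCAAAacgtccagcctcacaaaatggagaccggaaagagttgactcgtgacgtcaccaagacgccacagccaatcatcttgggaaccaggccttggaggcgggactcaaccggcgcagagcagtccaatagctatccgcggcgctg
Mcm6: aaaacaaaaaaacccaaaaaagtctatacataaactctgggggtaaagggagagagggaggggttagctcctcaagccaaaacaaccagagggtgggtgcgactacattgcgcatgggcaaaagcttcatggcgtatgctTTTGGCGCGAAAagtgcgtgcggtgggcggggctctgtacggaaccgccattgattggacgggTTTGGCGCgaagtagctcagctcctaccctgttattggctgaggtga
Mcm7: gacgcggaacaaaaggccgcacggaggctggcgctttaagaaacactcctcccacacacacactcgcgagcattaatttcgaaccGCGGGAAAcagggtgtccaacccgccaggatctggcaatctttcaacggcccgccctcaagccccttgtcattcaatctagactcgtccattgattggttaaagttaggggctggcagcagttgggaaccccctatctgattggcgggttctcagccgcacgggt
Tk1: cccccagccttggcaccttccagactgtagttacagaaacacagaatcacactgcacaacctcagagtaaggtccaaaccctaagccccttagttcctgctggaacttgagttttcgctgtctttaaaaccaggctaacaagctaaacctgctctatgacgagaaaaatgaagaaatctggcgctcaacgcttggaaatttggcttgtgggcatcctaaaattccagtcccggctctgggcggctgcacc

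These windows lie at chr4:108579204-108579453 (Orc1, plus strand), chr11:98907901-98908150 (Cdc6, plus strand), chr8:75109259-75109508 (Mcm5, plus strand), chr1:128359706-128359955 (Mcm6, minus strand), chr5:138171884-138172133 (Mcm7, minus strand) and chr11:117826015-117826264 (Tk1, minus strand). In Orc1 the word begins 27 bases before the start, and in Cdc6 138 bases before it. Mcm5 holds 2 overlapping words, and Mcm6 holds 3, of which 2 overlap. Mcm7 has a further annotated start whose window has no word. CCAAT, the box read by NF-Y, was in the windows of 27 members, 60.0%, against 37.5% of all genes, and of the called members Orc1, Orc2, Rfc1 and Clspn had it. In Orc2 it lies in the window of a downstream annotated start, and the window of the more upstream start lacks it. For Gmnn, Mcm4, Gins1, Gins2, Gins4, Prim2, Pole, Rfc2 and Tipin no window was used here.

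Helicase activation turned on 8 members, of which 1 rose and none fell, with a median difference of 0.08. That was 12.5% called, against 9.1% of all probe sets. Gins1, a subunit of the 4-part GINS complex that completes the active helicase, read 8.76 and 8.82 in shCtrl and 9.24 and 9.24 in shPW1. The silenced extractions were almost identical and stood clear of the controls (0.45, 1.37-fold, SE 0.06, adjusted p = 0.0233), the lowest adjusted p of the 54 members. Its partners did not pass the test. Gins2, Gins3 and Gins4 had differences of -0.05, -0.04 and 0.03, and the signs of all 3 turned under another scaling or normalization of the arrays.

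Cdc45, the other protein that binds MCM2-7 to form the helicase, read 9.17 and 9.15 against 9.38 and 9.45 (0.26, SE 0.06, adjusted p = 0.0696). Its arrays did not overlap, and it lay among the 7 members with an adjusted p between 0.05 and 0.07, of which 5 had positive and 2 negative differences. Mcm10, which helps to start the assembled helicase, read 8.77 and 8.61 against 8.92 and 8.99, an almost equal difference with a larger error (0.26, SE 0.08, adjusted p = 0.118). The kinase that triggers assembly is made of Cdc7 and its activator Dbf4. Cdc7 read 6.995 and 6.79 against 6.66 and 6.88, with overlap and the widest error of all members (-0.12, SE 0.11), and Dbf4 differed by 0.13 (adjusted p = 0.290).

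Of the 9 replicative polymerase and primase members none was called, a count that does not set them apart where 9.1% of all probe sets were called. All differences lay between -0.17 and 0.14, and the arrays of the groups overlapped in 4. Thus 55.6% were without overlap, beside 55.5% of all probe sets. DNA polymerase alpha and primase lay down the first primers. Its subunits Pola1, Pola2 and Prim2 had differences of -0.04, 0.0049 and 0.02, whose 95% intervals reached no further than -0.22 and 0.18, and Prim1, the catalytic primase subunit, had 0.14 (adjusted p = 0.295). Polymerase epsilon copies the leading strand. Its catalytic subunit Pole read 8.61 and 8.60 in shCtrl and 8.42 and 8.45 in shPW1, without overlap (-0.17, SE 0.06, adjusted p = 0.142), and Pole2 had -0.08 with overlap. Polymerase delta copies the lagging strand. Pold1, its catalytic subunit, read 8.56 and 8.49 against 8.39 and 8.37 (-0.14, adjusted p = 0.220), Pold2 had -0.09 and Pold3 had 0.10.

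Among the 11 genes of the clamp, its loader, the single-strand binding protein and lagging-strand maturation, 1 rose and none fell. That was 9.09% called, beside 9.1% of all probe sets, so the count does not set them apart. Pcna, the sliding clamp and a common marker of proliferation, read 11.63 and 11.64 in shCtrl and 11.62 and 11.66 in shPW1. The groups overlapped and the difference was 0.01, with a 95% interval from -0.14 to 0.16. A second Pcna probe set gave 0.01 as well, but both are annotated to the same transcripts, so they are not independent, and whether either also reads a copy of Pcna elsewhere in the genome was not tested. Replication factor C opens the clamp and sets it on DNA. Rfc1, its large subunit, rose from 9.38 and 9.29 to 9.78 and 9.77, clear of the controls (0.44, 1.36-fold, SE 0.06, adjusted p = 0.0285). The 4 small subunits Rfc2, Rfc3, Rfc4 and Rfc5 had differences of -0.14, -0.13, 0.01 and -0.10, none called. In 3 of them both shPW1 arrays were below the controls, as they were in 28.0% of all probe sets.

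The RPA trimer, which coats single-stranded DNA, had differences of both signs. Rpa2 read 9.14 and 9.12 against 9.39 and 9.42 (0.28, SE 0.06, adjusted p = 0.0556). Rpa3 read 7.64 and 7.67 against 7.92 and 7.89 (0.26, adjusted p = 0.0650), and its second probe set gave 0.19. The large subunit Rpa1 read 10.09 and 10.05 against 9.94 and 9.88 (-0.16, adjusted p = 0.186). None of the 3 passed. Their groups did not overlap, which was also so for 55.5% of all probe sets. Of the enzymes that finish Okazaki fragments, the flap nuclease Fen1 read 9.06 and 9.05 against 9.24 and 9.33 (0.23, SE 0.06, adjusted p = 0.0966), and the DNA ligase Lig1 had a difference of -0.13 (adjusted p = 0.306).

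The 5 nucleotide enzymes held the only fall, which was 20.0% called, against 9.1% of all probe sets. Tk1, the cytosolic thymidine kinase that salvages thymidine in S phase, read 10.33 and 10.32 in shCtrl and 9.97 and 10.02 in shPW1, without overlap, and thus fell by 20.6% (-0.33, SE 0.06, adjusted p = 0.0396). Its second, dimmer probe set read 9.06 and 9.10 against 8.79 and 8.83 and did not pass (-0.27, adjusted p = 0.0608). The direction was shared by both probe sets while the call rested on the brighter one, and it was lost after array medians were subtracted (adjusted p = 0.0797). Tyms, which makes thymidylate by the other route, read 9.34 and 9.35 against 9.54 and 9.52 (0.19, SE 0.06, adjusted p = 0.120). Rrm1 and Rrm2, the large and small subunits of ribonucleotide reductase, each had a difference of 0.06, with 95% intervals from -0.10 to 0.21 and from -0.10 to 0.22. Dut, which removes dUTP from the pool, had -0.05.

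Of the 6 fork, chromatin and repair members, 1 rose (16.7% called, against 9.1% of all probe sets). Clspn encodes claspin, which rides with the fork and passes the stress signal from ATR to Chk1. It read 8.24 and 8.16 in shCtrl and 8.50 and 8.57 in shPW1, apart in every array (0.33, SE 0.07), and passed the threshold by a small margin (adjusted p = 0.0498). Tipin, another fork protection protein, had a difference of 0.10. Chaf1a and Chaf1b, subunits of the CAF-1 histone chaperone that rebuilds nucleosomes behind the fork, had 0.05 and 0.03. Uhrf1, which brings maintenance methylation to newly copied DNA, read 10.61 and 10.52 against 10.69 and 10.68 without passing (0.12, SE 0.06, adjusted p = 0.292). Mcm8, a helicase of recombination repair outside the MCM2-7 ring, had -0.05 with overlap.

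Other genes of the same processes were counted from lists chosen with earlier results of these data known. Of 26 further replication factors, 3 rose and 2 fell (19.2% called, against 9.1% of all probe sets), and the median difference was 0.09. Exo1, a flap and mismatch repair nuclease, read 8.07 and 7.99 against 8.40 and 8.41 (0.37, adjusted p = 0.0354). Timeless, the fork partner of Tipin, read 8.14 and 8.13 against 8.45 and 8.45 (0.32, adjusted p = 0.0387), and Atad5, which unloads PCNA, rose by 0.32 (adjusted p = 0.0427). Both falls were small accessory subunits of replicative polymerases. Pold4 read 9.35 and 9.27 in shCtrl and 8.59 and 8.83 in shPW1 (-0.60, SE 0.10, adjusted p = 0.0348). Pole4 read 8.51 and 8.53 against 8.04 and 8.12 (-0.44, SE 0.06, adjusted p = 0.0272). Their shPW1 arrays all lay below the controls, which rests on the same values as the calls. Both differences were larger than that of any of the 9 polymerase and primase members. Pole3, from the same list, had both shPW1 arrays above the controls without being called (0.26, adjusted p = 0.105).

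Nucleotide synthesis and salvage beyond the 5 enzymes above was represented by 33 of 35 listed genes. Of these, 5 rose and none fell (15.2% called, against 9.1% of all probe sets), with a median of 0.13. Ppat, the first committed enzyme of purine synthesis, read 10.27 and 10.25 in shCtrl and 10.84 and 10.87 in shPW1 (0.59, 1.51-fold, SE 0.06, adjusted p = 0.0131). Gart, a later enzyme of that path, rose by 0.29. Umps, which completes uridine monophosphate, rose by 0.37, the CTP synthetase Ctps by 0.33, and the dCMP deaminase Dctd, which feeds Tyms, by 0.36. All 5 had arrays that did not overlap, which rests on the same values as the calls and adds nothing to them. Of the 33, 20 had both shPW1 arrays above the controls and 5 below, against 27.5% and 28.0% of all probe sets. Of 10 measured checkpoint genes, 1 rose, Cdc25a, the phosphatase that activates Cdk2, from 9.48 and 9.45 to 10.10 and 10.10 (0.63, SE 0.06, adjusted p = 0.0120). None of 10 further replication-coupled chromatin factors was called by limma, and 2 had an unadjusted p under 0.05. Of all probe sets tested, 9.1% were called.

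**Figure D3:**
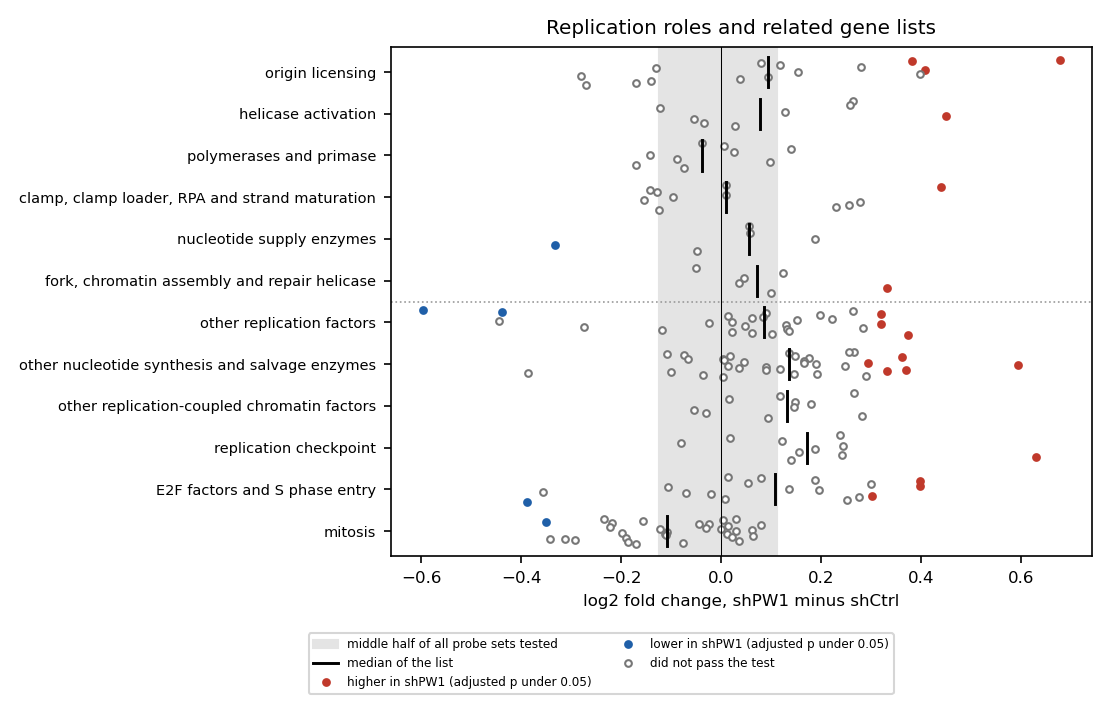
Log2 fold change (shPW1 minus shCtrl, horizontal axis) of each measured gene in the 6 roles of the 54 members (above the dotted line) and in 6 related lists (below it), with 1 point per gene, filled where called, a black line at each list's median and a grey band over the interquartile range of all probe sets tested. The medians of the 6 roles lie between -0.04 and 0.09, inside the grey band, which runs from -0.12 to 0.11.

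Cell identity genes also differed between the groups. Of 8 pericyte and mesoangioblast markers 5 fell, Anpep, Cspg4, Pdgfrb, Mcam and Des, where 4.17% of all probe sets were called lower. The mean log2 level of all 8 was 8.26 to 8.28 in shCtrl and 7.90 to 7.91 in shPW1. Acta2 (0.16) and the dim Rgs5 (0.09) went the other way, with both shPW1 arrays above the controls, and were not called. Alpl, a marker of these cells, was low in all arrays, between 5.73 and 5.95. Of 6 myogenic commitment markers 3 fell, Myod1 (-1.72), Myog (-0.71) and Cdh15 (-0.64), and the mean level of all 6 went from 7.49 and 7.50 to 7.03 and 6.96. Myf5 had both shPW1 arrays above the controls without being called (0.15), and Pax3 and Pax7 overlapped. No gene was called among 8 terminal muscle, 7 leukocyte or 8 endothelial markers, whose mean levels lay between 4.37 and 5.55 in every array, near or below the median row of the table (5.44), and 1 of 6 adipocyte markers fell (Pparg, -0.58). Deposited values have no true zero. The part of these shifts in the differences of the replication genes was not tested.

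The number of members called depended on the setting of the test. With limma as described it was 6 higher and 1 lower. It was 14 and 4 when probe sets below the median row were left out, 15 and 7 with a trended robust prior, and 0 and 0 when all 35556 rows were tested together. Leaving out any 1 of the 4 arrays, whichever group it came from, removed all calls, over all probe sets as well as among the members, with 1 residual degree of freedom left. The 6 rises and the fall of Tk1 kept their sign in every setting tried, but most settings could not have turned it. Many leave the fold change as it was, and where the groups do not overlap, leaving out an array cannot reverse it. For the 6 rises a sign could turn only under quantile normalization. Subtracting array medians raised every difference, and each of these genes had 1 probe set. For Tk1 it could also turn under subtraction of array medians or another choice of probe set.

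**Figure D4:**
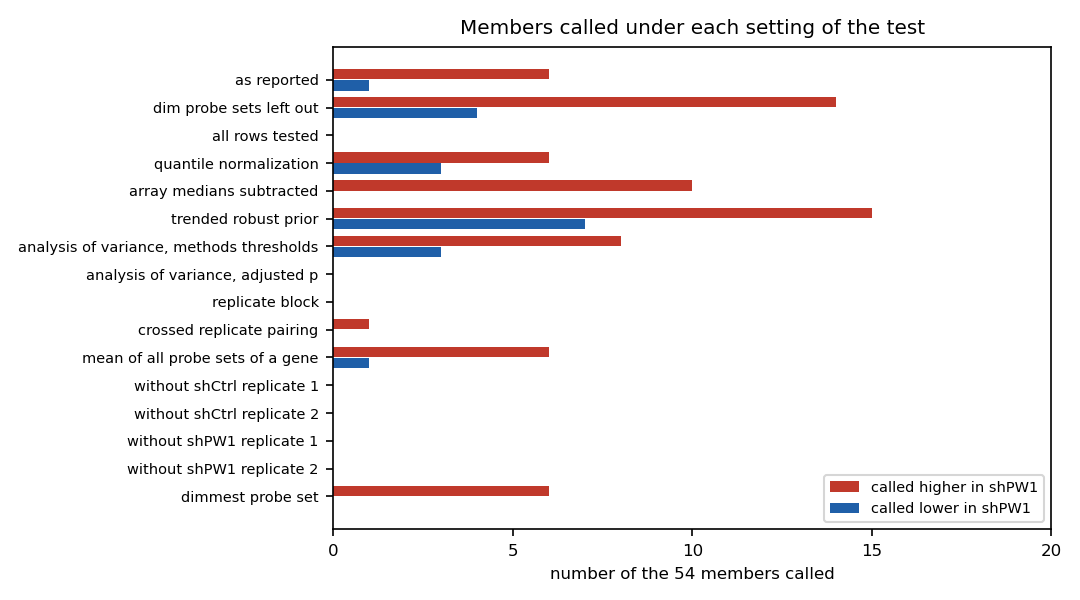
Number of the 54 members called higher (red bars) or lower (blue bars) in shPW1 cells under each setting of the test, with the reported setting at the top. Counts run from 0 without any 1 array to 15 higher and 7 lower with a trended robust prior.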

How the data were processed

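RNA from 2 extractions each of growing shCtrl and shPW1 AdmMABs was hybridised to 4 one-colour arrays. The authors processed them by RMA in Partek (the submitters' processing notes give version 6.4). The deposited values are log2 expression, and background correction, normalization and summarization were not repeated here. The build behind the array annotation is not given in the sources used here. Of 35556 rows, 21789 probe sets with exactly 1 gene symbol were fitted in R 4.3.3 by limma 3.58.1 (lmFit, then eBayes, with 2 residual and 2.72 prior degrees of freedom), with two-sided p-values adjusted over all of them by Benjamini-Hochberg. Rows with several symbols (1621) or none (12146) were left out. The fit was tested on simulated data. The 2 arrays per group limit the precision. No detection call was used. The members and all gene lists were chosen with earlier results of these data known. Every member was named, with the value in each array for called members and the 2 largest differences of each role, and of each related list up to 4 called genes with the largest change. Peg3, Ccne1 and Ccne2 were always named. Timeless, Gart, Pole3, E2f1, Mki67, Ccna2 and the cell identity genes were named after their values were seen. Alternatives were a dim filter, all rows, array medians subtracted, quantile normalization, the methods' analysis of variance, a robust prior with trend, the replicate block, the mean over probe sets and leaving out each array. The dimmest probe set of a gene and a crossed pairing were added after seeing the data.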

Additional observations from a re-analysis of the deposited data

How the results depend on the processing

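Beside 6 members called higher and 1 lower, the counts were 14 and 4 without dim probe sets (12689 tested), 0 and 0 over all 35556 rows, where 36 and 50 rows were called in all, 6 and 3 after quantile normalization, 10 and 0 with array medians subtracted, and 15 and 7 with a trended robust prior. The methods' analysis of variance gave 8 and 3 at their thresholds (p under 0.05 and a fold change over 1.2) and 0 and 0 after Benjamini-Hochberg. Replicate numbers were shared in name alone (correlation of deviations -0.105): with the replicate block the members called were 0 and 0, with 256 and 258 probe sets called in all, and 16 members had an unadjusted p under 0.05. With the crossed pairing they were 1 and 0, with 213 and 224 in all. The dimmest probe set of each gene gave 6 and 0, and the mean over probe sets 6 and 1. Each array left out gave 0 and 0 for the members and 0 in all, with 14 to 17 members at an unadjusted p under 0.05. The median member difference of 0.036, beside -0.0095 over all probe sets, became 0.0004 beside -0.0011 after quantile normalization and 0.094 beside 0.049 with array medians subtracted, and without 1 array it lay between 0.0073 and 0.066. Fewer features or arrays enter the dim filter and the left-out arrays. Subtracting array medians raised every difference by the same amount, as in Orc1 (0.6774 to 0.7356) and Mcm2 (-0.2817 to -0.2235). The cause of the other changes was not tested. Signs turned only for members near zero. After quantile normalization Gins4 was -0.0086, Pola2 -0.051, Prim2 -0.013, Rfc4 -0.036 and Chaf1b -0.0195. With array medians subtracted Gins2 was 0.0035, Gins3 0.023, Pola1 0.020, Dut 0.0095 and Mcm8 0.0072. Without 1 array the range was -0.079 to 0.0085 for Gins3, -0.023 to 0.077 for Gins4, -0.089 to 0.012 for Pola1, -0.019 to 0.029 for Pola2, -0.0083 to 0.057 for Prim2, -0.151 to 0.00060 for Pole2, -0.0072 to 0.025 for Pcna, -0.046 to 0.063 for Rfc4, -0.115 to 0.013 for Mcm8 and -0.021 to 0.090 for Chaf1b.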

Other observations

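Regulators upstream of these genes and genes of the following phase were measured on the same arrays. Of 18 E2F factors and S phase entry genes, 3 rose and 1 fell (22.2% called, against 9.1% of all probe sets). E2f4, a repressor-type E2F of resting cells, read 8.63 and 8.52 in shCtrl and 9.01 and 8.94 in shPW1 (0.40, SE 0.07, adjusted p = 0.0387 from limma). E2f7, an atypical E2F that represses E2F targets late in S phase, read 8.59 and 8.52 against 8.95 and 8.96 (0.40, SE 0.06, adjusted p = 0.0315). Ccne1, which encodes cyclin E1, the Cdk2 partner at S phase entry, read 9.35 and 9.36 against 9.63 and 9.68 (0.30, SE 0.06, adjusted p = 0.0484), and Ccne2 read 8.37 and 8.22 against 8.43 and 8.71 without passing (0.28, adjusted p = 0.223). Cdkn1b, which encodes the Cdk inhibitor p27, fell from 8.76 and 8.81 to 8.36 and 8.44 (-0.39, SE 0.06, adjusted p = 0.0345). E2f1, an activating E2F, overlapped between the groups, with a difference of 0.01.

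Of 31 mitosis genes none rose and 1 fell (3.23% called, against 9.1% of all probe sets), and the median difference was -0.11. Aurka, the spindle pole kinase, read 10.45 and 10.38 in shCtrl and 10.06 and 10.06 in shPW1 (-0.35, SE 0.06, adjusted p = 0.0377 from limma). Mki67, the proliferation marker, read 10.10 and 9.99 against 9.72 and 9.69 and lay just past the threshold (-0.34, SE 0.07, adjusted p = 0.0505). Ccna2, cyclin A2, overlapped between the groups, with a difference of 0.01. In 18 of the 31 both shPW1 arrays were below both controls and in 3 above. Over all probe sets tested, 28.0% lay below and 27.5% above in this way.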
